A study of Mus musculus with 3 samples.

Results

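The Egr, Nr4a and Ier genes and Btg2 are immediate early genes, the genes a cell transcribes first after a stimulus. The 10 genes described here were chosen by name, with earlier results of these data known. They are Egr1, Egr2 and Egr3, Nr4a1, Nr4a2 and Nr4a3, Ier2, Ier3 and Ier5, and Btg2. Each had at least 1 probe, which gave 12 probes in 21 spots out of 39429 probes that were not controls. The RNA came from lower-limb skeletal muscle of mFoxO1KO mice, with an inducible deletion of Foxo1 specific to skeletal muscle, and of control mice. Foxo1 encodes a forkhead transcription factor. All mice were male C57BL/6 and all of them, controls included, ate an AIN93G diet with 0.625 g/kg doxycycline between 8 and 14 weeks of age. The promoter that drives the deletion and the muscles within the lower limb are not given in the sources used here. There were 3 biological replicates of mFoxO1KO and 3 of control, hybridised in pairs to 3 arrays of 2 colours, with mFoxO1KO RNA always in Cy5 and control RNA always in Cy3. A dye effect of a probe therefore cannot be told apart from genotype in any ratio below.

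Immediate early genes need no new protein for their induction, and their transcripts are short-lived. Egr proteins are zinc finger transcription factors induced through serum response factor and its ternary complex partners. Nr4a proteins are orphan nuclear receptors that bind DNA without a known classical ligand, and in muscle they respond to adrenergic and cAMP signals and to contraction and are linked to genes of glucose and lipid use. The Ier proteins share little but their early induction. Btg2 belongs to the antiproliferative Btg and Tob family, whose members bind the Ccr4-Not deadenylase that shortens mRNA tails.

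RefSeq promoter windows of build GRCm38.p6, from 250 bases before to 50 bases after a transcription start, were matched by symbol for 7 of the 10 genes. Egr1, Egr3 and Ier2 had no match. The 3 Nr4a promoters and that of Btg2 are shown because of a shared element, the core of the cAMP response element (TGACG, or CGTCA on the other strand). Capitals mark that core, the full element TGACGTCA in Btg2, and in Nr4a1 also the Egr-type element GCGGGGGCG, read there from the other strand. The windows lie at chr15:101266596-101266895 on the plus strand (Nr4a1), chr2:57123954-57124253 on the minus strand (Nr4a2), chr4:48045055-48045354 on the plus strand (Nr4a3) and chr1:134079106-134079405 on the minus strand (Btg2).
Nr4a1: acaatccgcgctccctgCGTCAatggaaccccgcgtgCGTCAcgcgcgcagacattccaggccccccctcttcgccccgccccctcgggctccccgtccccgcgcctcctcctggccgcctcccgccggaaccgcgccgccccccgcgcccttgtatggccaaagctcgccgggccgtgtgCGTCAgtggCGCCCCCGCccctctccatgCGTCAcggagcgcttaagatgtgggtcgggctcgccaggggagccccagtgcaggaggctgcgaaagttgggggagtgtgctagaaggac
Nr4a2: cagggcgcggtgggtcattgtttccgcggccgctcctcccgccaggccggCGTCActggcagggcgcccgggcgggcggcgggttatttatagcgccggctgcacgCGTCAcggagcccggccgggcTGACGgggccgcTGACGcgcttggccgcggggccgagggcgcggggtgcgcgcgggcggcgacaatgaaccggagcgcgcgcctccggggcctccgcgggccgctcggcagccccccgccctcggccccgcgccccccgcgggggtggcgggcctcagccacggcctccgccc
Nr4a3: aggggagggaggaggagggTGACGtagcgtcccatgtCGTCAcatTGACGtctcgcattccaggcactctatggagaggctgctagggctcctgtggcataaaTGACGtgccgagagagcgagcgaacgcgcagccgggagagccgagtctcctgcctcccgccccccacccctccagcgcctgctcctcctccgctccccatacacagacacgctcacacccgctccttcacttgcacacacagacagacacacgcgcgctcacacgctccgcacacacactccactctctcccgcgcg
Btg2: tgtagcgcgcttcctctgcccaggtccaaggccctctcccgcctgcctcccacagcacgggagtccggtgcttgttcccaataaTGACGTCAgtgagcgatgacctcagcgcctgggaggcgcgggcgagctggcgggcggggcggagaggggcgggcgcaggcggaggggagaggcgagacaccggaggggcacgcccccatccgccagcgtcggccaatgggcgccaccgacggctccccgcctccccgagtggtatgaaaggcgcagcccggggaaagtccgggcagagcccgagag

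Each of the 3 Nr4a windows held the core 4 times, counted on both strands. Of 27025 genes in the promoter table, 69 (0.255%) had a window with at least 4, a number chosen after the Nr4a windows had been seen. At least 1 core was present in 5 of the 7 genes (Egr2, Nr4a1, Nr4a2, Nr4a3 and Btg2), against 23% of all genes. The full element, which contains the core, was found in Btg2 alone of the 7 and in 2.03% of all genes. The serum response element known as the CArG box was found in Egr2 alone of the 7 and in 1.81% of all genes. Egr2 held 1 such box at positions -72 to -63 from the second of its 5 annotated starts. A different one lay at -72 to -63 from the third. The Egr-type element GCGGGGGCG was found in Nr4a1 alone, against 3.31% of all genes. Of the other elements searched on both strands, the Egr-type GCGTGGGCG (0.707% of all genes), the Nr4a monomer element AAAGGTCA (1.7%) and the FoxO core TGTTTAC (4.05%) had no match in these windows of the 7 genes. A match of letters is a description and does not show that a factor binds there.

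The software called 56% to 56.9% of probes well above background for mFoxO1KO RNA, and 52% to 55.9% for control RNA. No spot was saturated, and with only 3 arrays the precision of every value is limited. Foxo1 transcript, from the targeted gene, fell by 2.06 ± 0.49 on the log2 scale (SD, n = 3 arrays, limma, adjusted p = 0.0278), and its second probe gave -1.39 ± 0.61 (adjusted p = 0.0535 with every probe tested on its own). On arrays 1, 2 and 3 the first probe had -1.5, -2.42 and -2.27 and the second -0.7, -1.64 and -1.84, so both fell least on array 1. Whether either probe lies in the deleted part is not known here. All 10 skeletal muscle markers listed, among them Ckm and Acta1, were bright enough to be tested. In bulk muscle, fewer cells of a type and less RNA per cell cannot be told apart. Of 17460 genes tested, 481 (2.75%) passed an adjusted p under 0.05 (limma, Benjamini-Hochberg). Of all genes, 359 (2.06%) rose in mFoxO1KO muscle and 122 (0.699%) fell, and with median centring in place of loess, which raised the median of all genes to 0.16, 1153 rose and 51 fell.

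Among the 10 genes chosen, Nr4a1 alone passed that test. It was 1 of the 8 that could be tested, against the 2.06% of all genes that rose. Egr3 and Nr4a3 were too dim to be tested, and Ier2 entered through the mFoxO1KO channel alone, so counts over the 8 are descriptions. Mean ratios were above 0 for 7 of the 8 and below 0 for Ier3. Ratios were above 0 on all 3 arrays for 6 members (Egr1, Nr4a1, Nr4a2, Ier2, Ier5 and Btg2), where 27.9% of all genes were, and below 0 on all 3 for Ier3, where 24.5% were. In normalised channel levels, all 3 mFoxO1KO samples lay above all 3 control samples for 5 members (Egr1, Nr4a1, Nr4a2, Ier2 and Ier5), which was so for 14% of all genes. The median of the 8 mean log2 ratios was 0.41, against 0.01 for all genes tested.

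**Figure D1:**
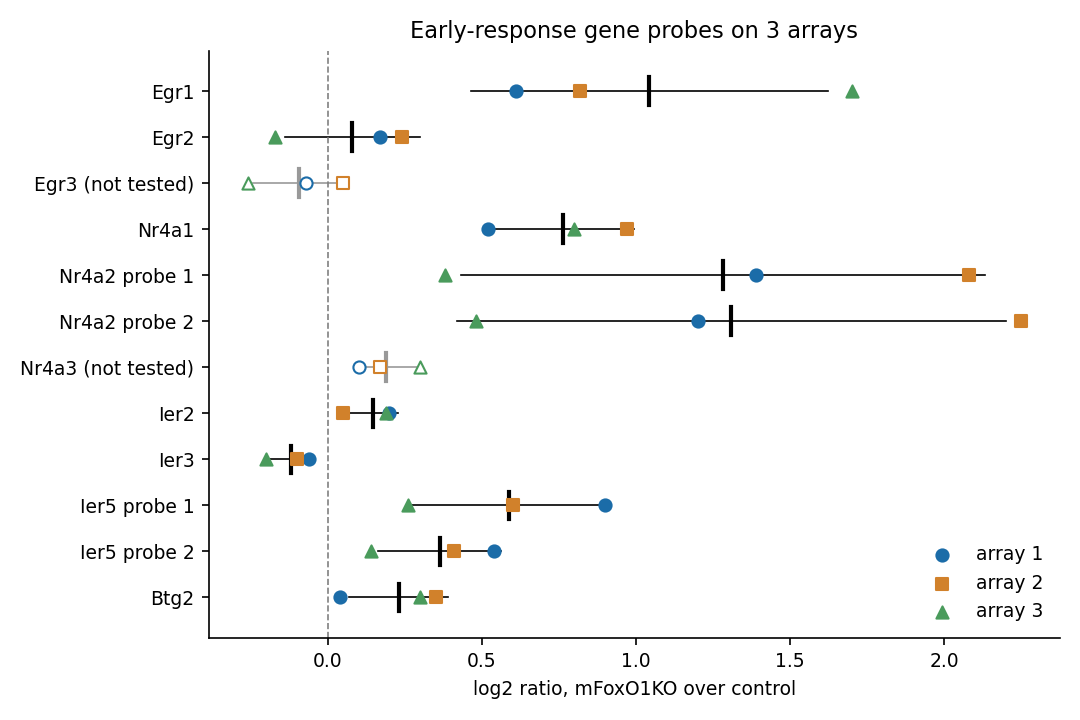
Log2 ratio of mFoxO1KO over control (x axis) for the 12 probes of the 10 genes, with a symbol for each of the 3 arrays, a bar at the mean and a line of 1 SD to each side. Open symbols are probes too dim to be tested. Nr4a1 lies between 0.52 and 0.97, while the 2 probes of Nr4a2 spread between 0.38 and 2.25 and Egr1 between 0.61 and 1.70.

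Nr4a1, the family member best known in muscle for controlling genes of glycogen and glucose use, was higher in mFoxO1KO muscle on every array. Its normalised log2 levels were 15.21, 15.83 and 15.65 in the mFoxO1KO samples of arrays 1, 2 and 3, against 14.69, 14.86 and 14.86 in the control samples. The control samples lay close together and the lowest mFoxO1KO sample, that of array 1, was still above all of them. The log2 ratios were 0.52, 0.97 and 0.80, with a mean of 0.76 ± 0.23 (SD, n = 3) and a 95% interval of 0.50 to 1.02, or 1.70-fold (limma, adjusted p = 0.0452). That p lies close to the threshold. The ratio stayed between 0.66 and 1.11 over 17 alternatives, of which 10 kept the call and 7 lost it. These are not independent checks. Several changed only the filter, the model or the choice of probe and left the ratio at 0.76, and 3 left out an array. The processed signals and the deposited log ratios both gave 0.75. Without array 2 the ratio was 0.66 (limma, adjusted p = 0.159), without array 3 it was 0.74 (adjusted p = 0.0826). The probe was bright on every array, with scanned Cy5 signals of 49823, 73771.5 and 73913 and Cy3 signals of 19765, 22369 and 21512 that are not on a common scale, and the correction for dye moved its ratio more than any other choice, to 1.11 with median centring only.

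Nr4a2, a nuclear receptor also known from dopamine neurons, had the largest mean ratio of the tested members but did not pass the test. Its brighter probe gave log2 levels of 9.25, 10.26 and 8.36 in mFoxO1KO muscle, against 7.86, 8.18 and 7.98 in control muscle. The spread was thus in the mFoxO1KO samples, with an SD of 0.95, and not in the controls, with 0.16. The ratios were 1.39, 2.08 and 0.38, and their mean was 1.28 ± 0.85 (SD, n = 3, 95% interval 0.46 to 2.11, limma, adjusted p = 0.0966). The second Nr4a2 probe gave 1.20, 2.25 and 0.48 with a mean of 1.31 ± 0.89, so both probes ordered the arrays alike. Array 3 was the low one by both. Without array 3 the mean was 1.73 (limma on 2 arrays, adjusted p = 0.0394), but leaving out the low array had to raise it. Without array 1 the mean was 1.23 (adjusted p = 0.176), and without array 2 it was 0.89 (adjusted p = 0.27).

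Nr4a3, the third receptor of the family and one that exercise is known to induce, lay at the edge of detection. Its probe was printed 10 times on each array, of which 1 spot of array 1 was left out as an outlier. In the mFoxO1KO channel 1 of 9 spots was well above background on array 1, 10 of 10 on array 2 and 9 of 10 on array 3. In the control channel no spot used was well above background on any array. Spot signals net of local background had medians of 17.5, 30.2 and 30.5 in mFoxO1KO muscle, where negative control spots had 4, 4 and 3. In control muscle the net medians were 35, 40.2 and 29, where negative control spots had 29, 29.5 and 28.5. The Cy3 channel thus held a signal on blank spots that the local background did not remove. Nr4a3 in control muscle lay near that signal on array 3 and above it on arrays 1 and 2. Net signals of the 2 channels are not on a common scale and do not show that Nr4a3 was absent from control muscle.

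**Figure D2:**
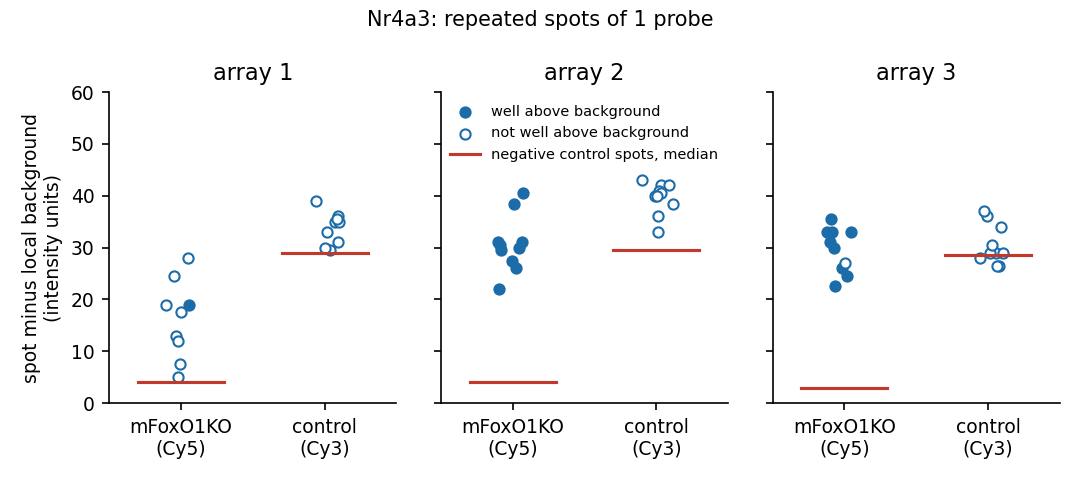
Spot signal minus local background (intensity units, y axis) of the repeated Nr4a3 spots on each array, mFoxO1KO left and control right, with filled points well above background and a line at the median of 153 negative control spots. The mFoxO1KO spots of arrays 2 and 3 lie well over their line of 4 and 3. The control spots have medians of 35, 40.2 and 29, against a line of 29, 29.5 and 28.5. Signals of the 2 channels are not on a common scale.

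The size of the Nr4a3 ratio differed between ways of processing the signals. With the main correction the 3 arrays gave log2 ratios of 0.10, 0.17 and 0.30, a mean of 0.19 ± 0.10 (SD, n = 3), and with normexp at no offset 0.48. The scanner software's processed signals gave 1.06, 1.11 and 2.11, a mean of 1.43 ± 0.59. The part of the blank signal in these values was not tested. Against the lowest control signal counted as above background, or the probe's own where higher, mFoxO1KO muscle was 1.1-fold higher on average. That value has no interval and is open to dye bias. It includes array 1, where 1 of 9 mFoxO1KO spots was well above background. When every probe was tested without a filter on dim ones, Nr4a3 did not pass (0.19, limma, adjusted p = 0.176).

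Egr1, the zinc finger factor of the family most often used as a marker of recent stimulation, was higher in mFoxO1KO muscle on each array without passing the test. Its log2 levels were 9.56, 9.29 and 9.69 in mFoxO1KO samples, against 8.94, 8.47 and 7.99 in control samples. The SD was 0.21 in mFoxO1KO muscle, against 0.48 in control muscle, so that here the controls were the more spread, the reverse of Nr4a2. The ratios were 0.61, 0.82 and 1.70 and the mean 1.04 ± 0.58 (SD, n = 3, 2.06-fold, 95% interval 0.48 to 1.61, limma, adjusted p = 0.0761). Array 3, the highest for Egr1, was the lowest for Nr4a2.

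Egr2, a factor best known for Schwann cell myelination, showed no common direction. Levels were 7.15, 7.07 and 7.0 in mFoxO1KO muscle, against 6.97, 6.83 and 7.17 in control muscle, and the groups overlapped. The mean ratio was 0.08 ± 0.22 (SD, n = 3, 95% interval -0.17 to 0.34, limma, adjusted p = 0.625). Of 9 Schwann cell markers none passed, where 2.75% of all genes did (median 0.09). Among these markers 7 had a mean above 0 and 2 a mean below it. Egr3, needed for muscle spindles, was not well above background in either channel of any array, and its ratios of -0.07, 0.05 and -0.26 are those of background.

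**Figure D3:**
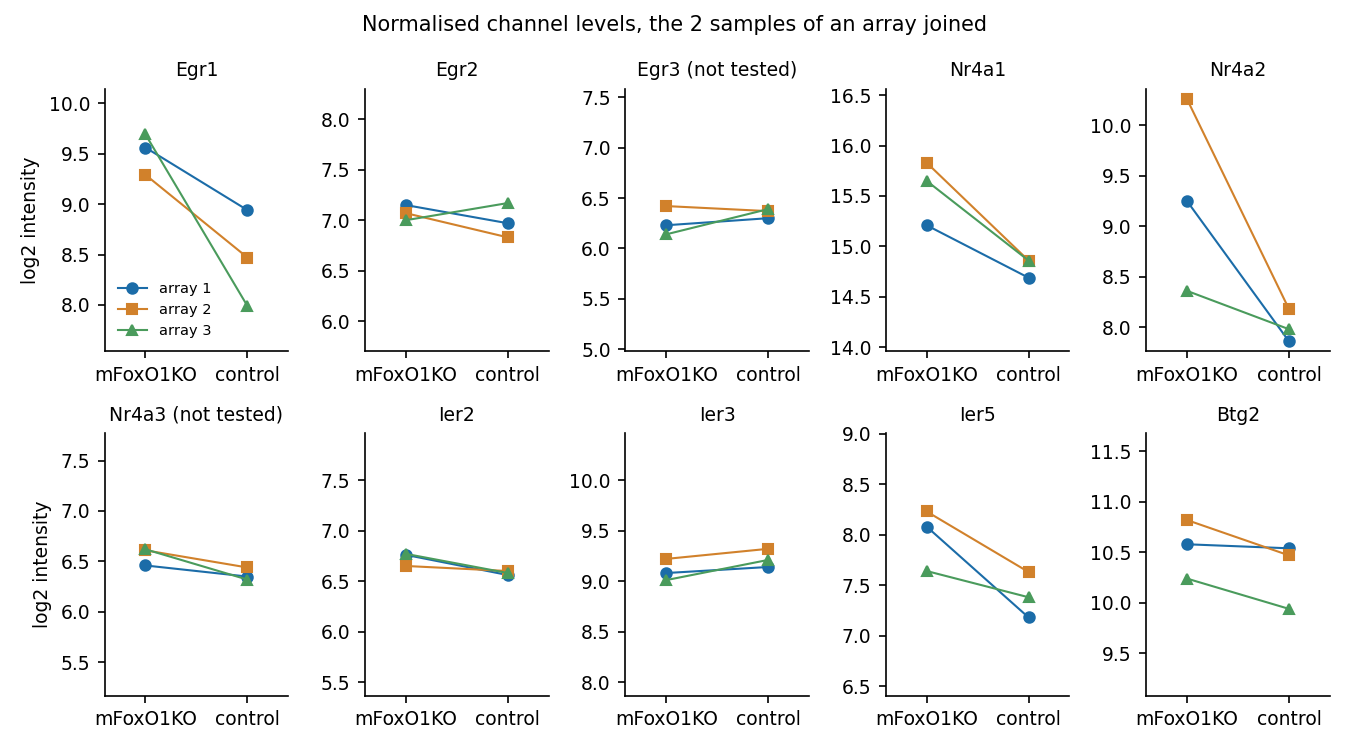
Normalised log2 intensity (y axis, each panel spans the same range) of the 10 genes in mFoxO1KO and control samples, with a line for each array joining its 2 samples. The Nr4a1 controls lie between 14.69 and 14.86, the Nr4a2 values fan out in mFoxO1KO muscle between 8.36 and 10.26, and those of Egr1 fan out in control muscle between 7.99 and 8.94.

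The Ier genes differed among themselves. Ier5, which encodes a partner of the heat shock factor Hsf1, had log2 levels of 8.08, 8.23 and 7.64 in mFoxO1KO muscle, against 7.18, 7.63 and 7.38 in control muscle, and the lowest mFoxO1KO sample lay just above the highest control. Its ratios were 0.90, 0.60 and 0.26, with a mean of 0.59 ± 0.32 (SD, n = 3, 1.5-fold, 95% interval 0.25 to 0.92, limma, adjusted p = 0.0819). The dimmer Ier5 probe gave 0.54, 0.41 and 0.14 in the same order, with a mean of 0.36 ± 0.20 and groups that overlapped. Ier2, a nuclear protein gene, was above background on 3 mFoxO1KO arrays and 1 control array, and had levels of 6.76, 6.65 and 6.77 in mFoxO1KO muscle, against 6.56, 6.60 and 6.58 in control muscle. Its mean ratio was 0.15 ± 0.08 (SD, n = 3, limma, adjusted p = 0.206), and 0.45 with the processed signals.

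Ier3, a regulator of cell survival, was the tested member with a mean below 0. Levels were 9.08, 9.22 and 9.01 in mFoxO1KO muscle, against 9.14, 9.32 and 9.21 in control muscle. The groups overlapped, and the mean of -0.12 ± 0.07 (SD, n = 3, 95% interval -0.28 to 0.03, limma, adjusted p = 0.266) turned to 0.07 with median centring. That interval leaves out a rise of the size seen for Nr4a1.

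Btg2 differed little between the genotypes and did not pass the test. Levels were 10.58, 10.82 and 10.24 in mFoxO1KO muscle, against 10.54, 10.47 and 9.94 in control muscle, and the groups overlapped. Its ratios of 0.04, 0.35 and 0.30 gave a mean of 0.23 ± 0.16 (SD, n = 3, 95% interval 0.02 to 0.44, limma, adjusted p = 0.164). Its relative Btg1, an inhibitor of proliferation known as a FoxO target, rose by 0.57 ± 0.17 (SD, n = 3, limma, adjusted p = 0.0492), with levels of 12.45, 12.55 and 12.40 in mFoxO1KO muscle, against 11.68, 12.09 and 11.92 in control muscle. The second Btg1 probe had 0.26. Btg1 was the 1 that passed of 5 tested relatives of the members (2.06% of all genes rose), whose median was 0.31. Btg3 did not pass but had 0.15, 0.25 and 0.78, with groups that did not overlap. Tob1, Tob2 and Ier5l had mixed signs over the arrays. None of 10 genes of the deadenylase and its partners passed, where 2.75% of all genes did (median 0.01). In that list 6 genes had a mean above 0 and 4 a mean below it. Cnot6l came nearest to the threshold, with -0.36 ± 0.06 (SD, n = 3, limma, adjusted p = 0.0532), but its other probe had 0.01.

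Other early-response genes gave a wider view of the same class. Of 46 on the array 42 were tested, of which 5 rose (against 2.06% of all genes), none fell and 37 did not pass, with a median of 0.25. On single arrays that median was 0.15, 0.28 and 0.31. Ratios were above 0 on all 3 arrays for 21 of the 42, against 27.9% of all genes, and below 0 on all 3 for 2, against 24.5%. Atf3, a stress-induced transcription factor gene, had levels of 8.78, 9.11 and 8.82 in mFoxO1KO muscle, against 7.40, 7.53 and 7.49 in control muscle, and rose by 1.43 ± 0.13 (SD, n = 3, limma, adjusted p = 0.00934). The pseudokinase gene Trib1 rose by 1.12 ± 0.27 and the nuclear protein gene Csrnp1 by 1.14 ± 0.35 (adjusted p of 0.033 and 0.0401). The small GTPase gene Rhob rose by 0.72 ± 0.21 (adjusted p = 0.0452), but its other probe had -0.05. Fos, a subunit of the AP-1 factor, is named after its values were seen. It rose by 1.1 ± 0.38 (adjusted p = 0.047), while its levels of 10.04, 8.55 and 8.54 in mFoxO1KO muscle overlapped those of 8.57, 7.83 and 7.43 in control muscle. Array 1 was high in both channels.

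The count of 5 depended on the processing. It was 16 with median centring, where 6.6% of all genes rose, 9 with the array as a random block (5.96%), 7 without array 1 (1.71%) and 2 with separate channels and no block (0.939%). It was 1 with the processed signals (0.939%), with no normexp offset (0.619%), with detection required in both channels (0.227%) and without array 2 (0.263%). In none of these did a listed gene fall.

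**Figure D4:**
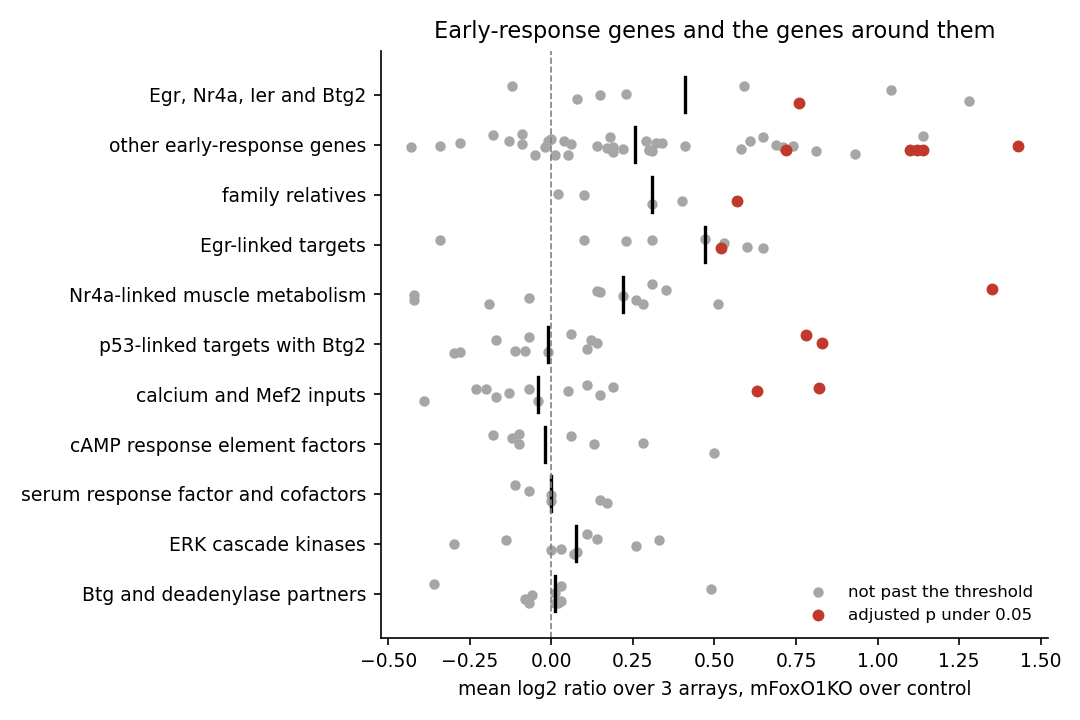
Mean log2 ratio over 3 arrays (x axis) of the tested genes of each list, with a bar at the list's median and red points past an adjusted p of 0.05 (limma). The medians lie at 0.41 for the early-response members and 0.25 for other early-response genes. They lie at 0.47 for Egr-linked targets, 0.31 for family relatives and 0.22 for Nr4a-linked muscle metabolism. Those of the p53-linked targets and of the Btg and deadenylase partners are -0.01 and 0.01. The lists of factors and kinases upstream have medians between -0.04 and 0.08. No list was tested against another.

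Among the lists of upstream factors, only that of calcium and Mef2 inputs had genes past the test, which 2.75% of all genes passed. None of 6 tested genes of serum response factor and its cofactors passed (median 0.00), and the 2 probes of Srf itself had -0.07 ± 0.08 and 0.24 ± 0.04. None of 8 genes of the cAMP response element factors passed (median -0.02). Among them Crem, whose product includes an inducible repressor, had 0.56, 1.11 and -0.16, the array order of Nr4a2. None of 10 ERK cascade kinase genes passed (median 0.08). In the calcium and Mef2 group 2 of 13 rose, against 2.06% of all genes (list median -0.04). Rcan1, an inhibitor of calcineurin that calcineurin itself induces, rose by 0.82 ± 0.20 (SD, n = 3, limma, adjusted p = 0.039), and Mef2a, a muscle transcription factor gene, by 0.63 ± 0.15 (adjusted p = 0.0404), but the other Mef2a probe had -0.07.

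Among genes known downstream, 1 of 13 linked to Nr4a receptors in muscle metabolism rose (against 2.06% of all genes), and the list median was 0.22. It was Ppargc1a, a coactivator of mitochondrial genes, with 1.08, 1.95 and 1.01 and a mean of 1.35 ± 0.52 (SD, n = 3, limma, adjusted p = 0.0492), and its second probe had 1.27. The other 12, with the glucose-use genes among them, did not pass. In that group 9 genes had a mean above 0 and 4 a mean below it. Of 9 Egr-linked genes 1 rose (list median 0.47), again against 2.06% of all genes. It was F3, which encodes tissue factor (0.52 ± 0.04, limma, adjusted p = 0.0366). Its channel levels overlapped between the groups. The other F3 probe, too dim to be tested, had -0.17, 0.08 and 0.09. The Egr partners Nab1 and Nab2, which repress Egr proteins, had 0.04 ± 0.06 and 0.24 ± 0.16. The 3 Rxr genes, partners of some Nr4a receptors, had a median of -0.02. Of 13 p53 targets, the class to which Btg2 belongs, 2 rose, against 2.06% of all genes (list median -0.01). They were Trp53inp1, a stress protein gene (0.78 ± 0.13, limma, adjusted p = 0.0278), and Cdkn1a, whose product halts the cell cycle (0.83 ± 0.23, adjusted p = 0.0401).

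Cdkn1a also had the array pattern nearest to that of Nr4a1, with ratios of 0.57, 1.00 and 0.93 and a Euclidean distance of 0.145 over the 3 log2 ratios. The next were Ralyl (0.61, 0.81 and 0.88, distance 0.206) and Ackr2 (0.45, 0.75 and 0.82, distance 0.231). The distance uses 3 arrays only and describes likeness of values.

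Markers of cell types differed between the arrays, and some had the array order of a member. With 3 arrays few orders are possible, so a shared order is a description only. The genes named for their order were picked after their values were seen. All 8 tested adipocyte markers had means above 0, with list medians of 2.89, 0.22 and 1.84 on arrays 1, 2 and 3 and summed linear levels of 102000 to 206000 in mFoxO1KO muscle, against 40200 to 93100 in control muscle. Of the 9 on the array only Lep was not well above background in control muscle. Nr4a1 and Nr4a2 were highest on array 2, where these markers were lowest, Egr1 was highest on array 3 and Ier5 on array 1. The 6 tested macrophage markers had medians of -0.05, 0.49 and 0.54 and summed levels of 2410 to 3020 in mFoxO1KO muscle, against 1860 to 2540 in control muscle, and like Nr4a1 and Egr1 were lowest on array 1. Of 6 neutrophil markers on the array 4 were too dim to test. Of the other 2, S100a9 had 0.89, 2.19 and 0.76, the array order of Nr4a2, and Csf3r had 0.54, 0.02 and -0.07. S100a9 was well above background on 3 mFoxO1KO arrays but only 1 control array, so it entered through the mFoxO1KO channel alone. The red cell gene Hba-a1 had 1.04, 0.00 and -0.34, the array order of Ier5. Myh2, a myosin gene of fast oxidative fibres, had -1.69, -0.34 and 1.36, the array order of Egr1. The part of cell or fibre makeup in the early-response ratios was not tested. No marker list had a gene past the threshold except that of skeletal muscle, where 1 of 10 rose (against 2.06% of all genes). It was Mb, the myoglobin gene (0.57 ± 0.14, limma, adjusted p = 0.0448). Its ratios of 0.65, 0.64 and 0.41 ran in the reverse of the array order of Egr1.

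**Figure D5:**
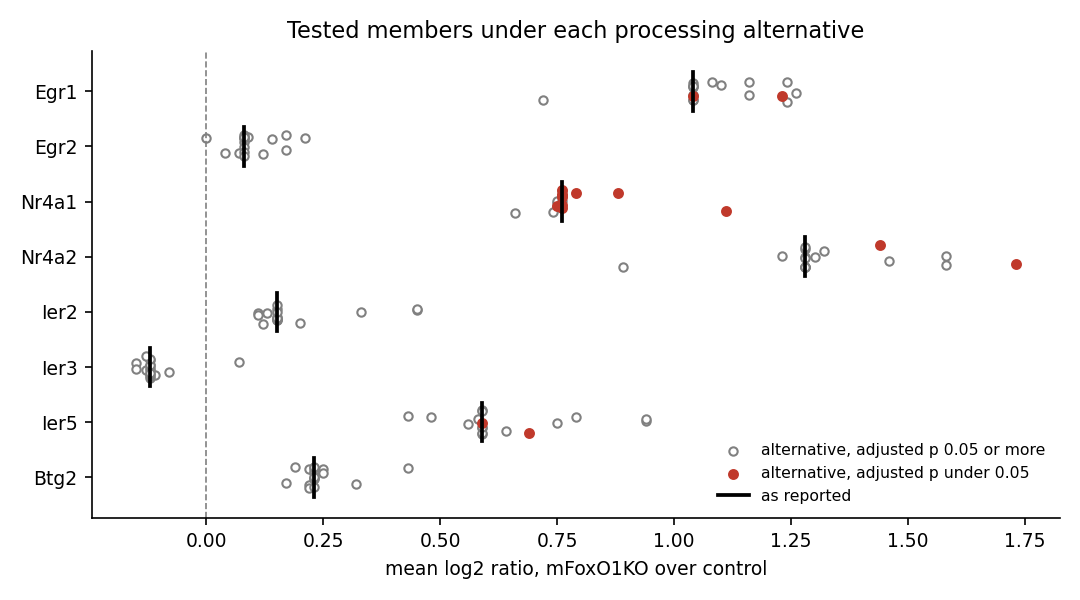
Mean log2 ratio (x axis) of each tested member under every processing alternative, with a black bar at the value as reported and red points past an adjusted p of 0.05 (limma). Nr4a1 stays between 0.66 and 1.11, Egr1 between 0.72 and 1.26 and Nr4a2 between 0.89 and 1.73, while Ier3 lies on both sides of 0.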

How the data were processed

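Each array was deposited as the scanner software's output. The median signal and local background columns are intensity values as scanned, per the file headers, and the processed intensity columns had been corrected by the authors' software for background, spatial trend and dye. The deposited log ratio column sets processed Cy5 over processed Cy3 as a log10 value. The headers name Feature Extraction 11.5.1.1 and the submitters' processing notes 9.3.2.1. RNA (0.2 µg) was labelled per the labels' protocols.

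Background was corrected by normexp (offset 50) on median signals, in place of the mean signals first planned, and arrays were normalised by loess in limma 3.58.1 (R 4.3.3). Between 281 and 319 outlier spots per array were left out. A probe needed to be well above background in the same channel on all 3 arrays (at least a share of 0.5 of its spots), and the brightest probe stood for a gene. Accessions matched a RefSeq symbol for 27502 of 39429 probes. Log2 ratios were tested against 0 (limma, intercept only, Benjamini-Hochberg over 17460 genes), and the fit was tested on simulated data. There it recovered 6 of 50 genes changed 1.5-fold, 34 of 50 changed 2-fold and 48 of 50 changed 4-fold. Of its 148 calls 10 were false. The noise was simulated and not taken from these arrays. Channel levels are loess and Aquantile normalised log2 intensities. The shared array pairs the 2 channels. Nothing says how the mice were paired. Members and lists were chosen with earlier results of these data known. Named from other lists are the genes past the threshold, at most 4 each by smallest p, and the 3 genes nearest to a called member. Fos and the named list genes that did not pass were chosen after their values were seen. Alternatives covered background, dye and between-array normalisation, filter, probe choice, variance model, separate channels and left-out arrays.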

Additional observations from a re-analysis of the deposited data

How the results depend on the processing

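The count of genes past the threshold, 481 as reported, was 133 with no normexp offset, 200 with the processed signals and 200 with the deposited log ratios, 1204 with median centring, 830 with scaling between arrays, 55 with detection in both channels and 746 with no filter. With separate channels it was 481 with the array as a fixed replicate block, 216 with no replicate block and 1649 with the array as a random block, a setting chosen after seeing the data. Leaving out an array gave 49 to 405. Nr4a1 kept its direction throughout but lost the call with no normexp offset (0.75), processed signals (0.75), deposited log ratios (0.75), detection in both channels (0.76) and no replicate block (0.76, adjusted p = 0.0758), and had 0.66 to 0.88 when an array was left out. Median centring, with which the median of all genes was 0.16, brought Egr1 (1.23), Nr4a2 (1.44) and Ier5 (0.69) past the threshold and turned Ier3 to 0.07. The random block did so for Egr1 (1.04) and Ier5 (0.59). Without single arrays Nr4a2 had 0.89 to 1.73, Egr1 0.72 to 1.26 and Ier5 0.43 to 0.75. The median of other early-response genes was 0.41 with median centring and 0.20 to 0.39 without single arrays. Egr2, Ier2 and Btg2 passed in none of their alternatives. Except where fewer arrays or probes entered, the cause was not tested. Signal over background limits Egr3, Nr4a3 and Ier2.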
